A study of Mus musculus with 29 samples.

Results

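The antioxidant and glutathione genes examined here are 39 genes, chosen by name: 3 superoxide dismutases, 6 genes of catalase and the glutathione peroxidases, 7 peroxiredoxin and sulfiredoxin genes, 6 genes of the thioredoxin and glutaredoxin system, 4 genes of glutathione synthesis and recycling, 8 glutathione S-transferases, 4 genes of the Nfe2l2 pathway and the uncoupling protein gene Ucp2. All 39 were found among the 30025 genes of the expression table. RNA was sequenced from 29 libraries of sorted bone marrow cells of 10 mice, 5 wild type (WT) and 5 5A3+/del. The 5A3+/del mice carry a heterozygous germline deletion of the 5A3 interval, made with Cre in embryonic stem cells between loxP sites at Fbxl13 and Srpk2, so that every cell of the animal has it and not the sorted cells alone. WT mice lacked the deletion. The paper compares with WT littermates in other assays and does not state this for the sequenced mice. Both genotypes were on a C57BL/6J background and were 12.42 to 13.85 weeks old.

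Cells that were Kit+, lineage-negative, Sca1+, CD41- and CD48- were divided by CD150 into CD150hi hematopoietic stem cells (HSC), CD150lo HSC and CD150neg cells, which the study treats as multipotent progenitors (MPP) and the sample labels call HSC. Each genotype and population had 5 libraries, except 5A3+/del CD150neg MPP with 4. Libraries held an estimated 21229490 to 38797569 fragments assigned to genes. The 7 expressed genes of the deleted interval were at a median of 52.6%, 52.2% and 46.4% of the WT level in CD150hi HSC, CD150lo HSC and CD150neg MPP. Slamf1, which encodes CD150, had a median of 14.7 FPKM (fragments per kilobase of gene, scaled by library depth) in WT CD150hi HSC, 1.60 in WT CD150lo HSC and 0.14 in WT CD150neg MPP. Cd48 RNA was not absent from cells gated as CD48- on surface protein, a different measure: its median was 0.31, 2.68 and 6.06 FPKM in the same order.

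Reactive oxygen species are by-products of respiration and of oxidase enzymes. Superoxide dismutases turn superoxide into hydrogen peroxide. Catalase breaks hydrogen peroxide down, while glutathione peroxidases and peroxiredoxins reduce it with electrons from glutathione or thioredoxin. Glutathione S-transferases join glutathione to reactive compounds, and many of these genes are targets of the transcription factor Nfe2l2, which Keap1 holds in check. HSC are known to depend on a low oxidative load for their self-renewal.

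Nfe2l2 binds the antioxidant response element, a short sequence near many of its known targets. Its core, written TGACNNNGC, was searched on both strands in promoters of 300 bases (250 before and 50 after a transcript start, RefSeq, GRCm38.p6) that could be placed in mm9, the build of the expression table, for 33 of the 39 members. A match was present in 9 of 33 members (27.3%) and in 14.0% of the 27025 genes with a promoter sequence. The matches, with 10 bases on each side and the core in capitals, are shown so that the members that hold it can be compared. The other members with a promoter sequence do not hold it. Each is written 5′ to 3′ on the strand of its gene, so that a core on the other strand appears as its reverse complement. Positions are those of mm9.
Nfe2l2, chr2:75542942-75542970, reverse strand: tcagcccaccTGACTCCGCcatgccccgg
Srxn1, chr2:151931278-151931306, forward strand: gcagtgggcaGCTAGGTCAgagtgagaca
Gstm5, chr3:107698720-107698748, forward strand: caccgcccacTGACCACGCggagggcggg
Gclm, chr3:121948331-121948359, forward strand: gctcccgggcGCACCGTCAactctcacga
Prdx1, chr4:116358061-116358089, forward strand: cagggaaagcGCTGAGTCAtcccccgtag
Mgst1, chr6:138088982-138089010, forward strand: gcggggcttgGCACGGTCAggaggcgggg
Ucp2, chr7:107641791-107641819, forward strand: ccctggctccGCCTCGTCAcgccacgccc
Txnrd1, chr10:82321849-82321877, forward strand: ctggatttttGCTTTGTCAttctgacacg
Sod1, chr16:90220941-90220969, forward strand: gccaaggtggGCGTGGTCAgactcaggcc

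The stricter core TGACTCAGC was found in 1 member, Prdx1, and in 0.503% of all genes. A match is a run of letters and not a bound site. Counted from the RefSeq transcript start used, the cores lay from 240 bases before the start (Nfe2l2) to 29 bases after it (Srxn1).

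Members spanned a wide range of expression, as seen in the plot of each member's level (the scale is FPKM, which is per gene length). The median over all libraries was at least 1 FPKM in 35 members, at least 10 in 24, at least 50 in 7 and at least 100 in 4. The highest medians were those of Sod1, the cytosolic superoxide dismutase, at 356 FPKM, Gpx1, the main cytosolic glutathione peroxidase, at 246 FPKM, Txnip, an inhibitor of thioredoxin, at 236 FPKM and Txn1, cytosolic thioredoxin, at 134 FPKM. The Gpx1 range of 166 to 300.3 FPKM overlapped that of Txnip, 144 to 344 FPKM. Gstm1 had 98.2 FPKM, catalase (Cat) 67.7 FPKM and Gstp1 53.7 FPKM. Nfe2l2 itself had a median of 38.5 FPKM against 3.86 FPKM for Keap1. Among the lowest were Gpx3, the secreted glutathione peroxidase, at 0.785 FPKM and Gstm2 at 0.385 FPKM. Sod3, the extracellular dismutase, never exceeded 0.408 FPKM and Gpx8 never exceeded 1.11 FPKM. Both fell below the filter of 1 FPKM in at least 4 libraries, so 37 of 39 members were tested among 15409 genes. Gstm2 reached the filter in 7 libraries, all of CD150hi HSC (2 WT and 5 5A3+/del), so it was tested only through the groups in which it was high.

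**Figure D1:**
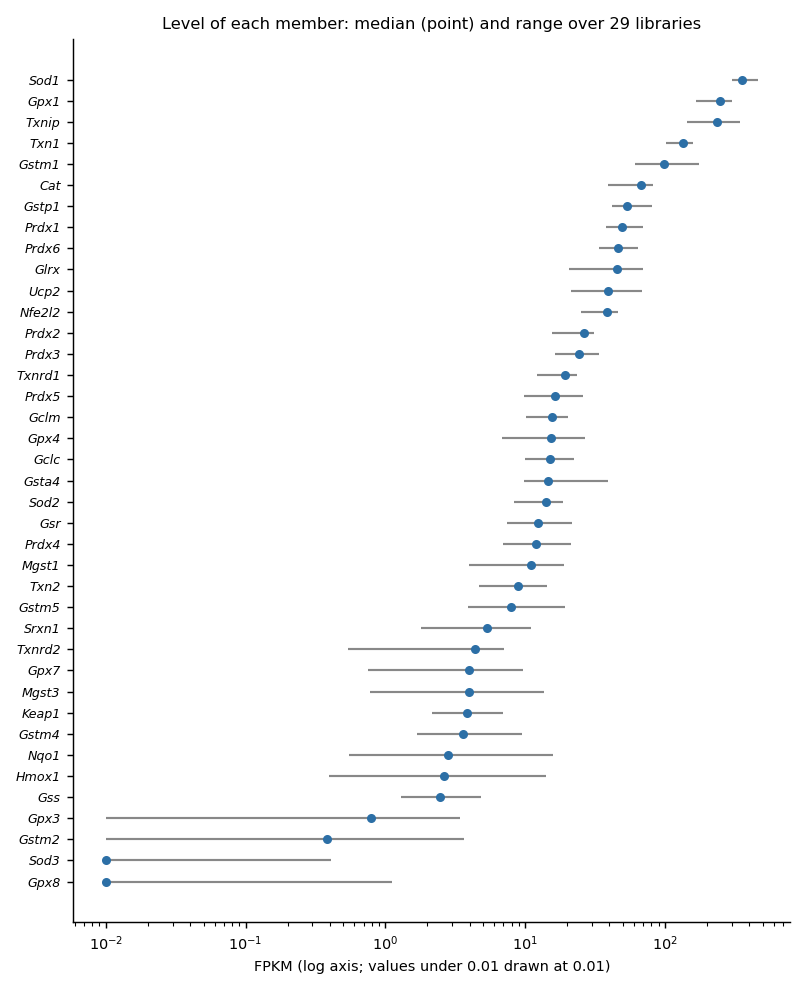
Level of each of the 39 members in FPKM on a log axis, with the median as a point and the range over all 29 libraries as a line. Sod1, Gpx1, Txnip and Txn1 lie above 100 FPKM, and Sod3 and Gpx8 lie at the bottom of the axis, where values under 0.01 are drawn at 0.01.

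The first comparison asked whether loss of 1 copy of the 5A3 interval was accompanied by other levels of these genes in each population. In CD150hi HSC, 2 of 37 members passed the test (5.41%, where 0.156% of all genes tested did): Gpx4 fell and Gstm2 rose in 5A3+/del cells. Since Gstm2 passed the filter only through CD150hi HSC, and there mostly through the 5A3+/del libraries, this count is a description and gives no support to a share of members above the background. The test was limma on quantile normalized log2(FPKM + 1) over all 29 libraries, 2-sided, with Benjamini-Hochberg adjustment over all 15409 genes and a threshold of 0.05. Values below called normalized FPKM are on that normalized scale turned back to FPKM, log2 differences are between means of log2(FPKM + 1), and all adjusted p-values are from limma. Over all genes, 5 rose and 19 fell, or 8 and 15 with median scaling in place of quantile normalization. The background of genes called between genotypes holds the deleted genes themselves. Of 24, 5 and 7 genes called in CD150hi HSC, CD150lo HSC and CD150neg MPP, 5, 4 and 4 lie in the deleted interval. In these bulk libraries, fewer cells of a type and less RNA per cell cannot be told apart.

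Gpx4 reduces lipid hydroperoxides within membranes and is the enzyme that guards cells against ferroptosis. It lies on mm9 at chr10:79509911-79519184 on the forward strand. Normalized FPKM of Gpx4 in WT CD150hi HSC were 28.3, 26.3, 18.1, 26.7 and 25.1. In 5A3+/del CD150hi HSC they were 6.84, 14.8, 17.7, 15.1 and 13.5. All 5 5A3+/del libraries were below all 5 WT libraries, although the highest of one group and the lowest of the other were close, and replicate 1 of 5A3+/del stood below the rest. The mean was 13.6 ± 4.06 (SD, n = 5) against 24.9 ± 3.97 (SD, n = 5), or 54.6% of WT, with a log2 difference of -0.87 (SE 0.18, limma adjusted p = 0.0422). Without 5A3+/del mouse 1 the Gpx4 difference was -0.66 and the adjusted p 0.065. Leaving out 1 mouse at a time, the adjusted p of Gpx4 ran from 0.0326 to 0.125 and stayed under 0.05 in 3 of 10 cases, the losses being without WT mouse 1, 2 or 4 and without 5A3+/del mouse 1, 2, 4 or 5. With only the 2 CD150hi groups in the fit the adjusted p of Gpx4 was 0.400, and with a pseudocount of 0.1 it was 0.0515.

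In CD150lo HSC, Gpx4 was 13.2 ± 1.91 normalized FPKM in 5A3+/del against 17.9 ± 3.35 in WT (SD, n = 5 each), a log2 difference of -0.41 (SE 0.18, adjusted p = 0.654). Its level in CD150neg MPP was 15.2 ± 2.07 (SD, n = 4) against 14.8 ± 1.53 (SD, n = 5) normalized FPKM. The genotype difference of Gpx4 in CD150hi HSC was not shown to differ from that in CD150lo HSC (interaction -0.46, SE 0.25, adjusted p = 0.999) or CD150neg MPP (interaction -0.91, SE 0.26, adjusted p = 0.375). A second sequence on chromosome 10 matches 67.2% of the Gpx4 coding sequence at up to 99.6% identity and has no row of its own in the table, and its part in the Gpx4 values was not tested.

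Gstm2, a mu-class glutathione S-transferase, lies at chr3:107784620-107789371 on the reverse strand in the cluster that also holds Gstm1, Gstm4 and Gstm5. The 250 bases before a RefSeq transcript start at 107789338, chr3:107789339-107789588 on the reverse strand of mm9, are shown because Gstm2 was the member called most often. The last bases as printed lie inside the gene span given, since another annotated transcript starts farther upstream. The stretch holds no TGACNNNGC.
Gstm2: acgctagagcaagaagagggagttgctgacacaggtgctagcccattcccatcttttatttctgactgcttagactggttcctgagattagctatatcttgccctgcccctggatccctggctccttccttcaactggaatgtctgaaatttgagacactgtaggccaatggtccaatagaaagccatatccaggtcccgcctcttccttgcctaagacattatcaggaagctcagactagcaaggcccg

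In WT CD150hi HSC, normalized FPKM of Gstm2 were 0.583, 1.58, 1.81, 0.513 and 0.794. The 5A3+/del libraries gave 1.99, 2.18, 2.22, 3.32 and 3.7. The groups did not overlap, and the means of 2.68 ± 0.772 and 1.06 ± 0.598 (SD, n = 5 each) differed 2.54-fold, with a log2 difference of 0.86 (SE 0.18, limma adjusted p = 0.0436). Even so, Gstm2 in CD150hi HSC was only 0.418% to 3.47% of the Gstm1 level in FPKM. Without 1 mouse at a time the adjusted p of Gstm2 ran from 0.0326 to 0.114 and held in 2 of 10 cases, those without WT mouse 2 or 3. With only the 2 groups in the fit it was 0.394 and with a pseudocount of 0.1 it was 0.248.

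This call depended on a second gene. The Gstm2 coding sequence is matched at 2 other places, which together cover 83.0% of it at up to 99.1% identity. The share matched by each place was not separated. The copy followed here is Gm6665 on chromosome 18 (31979516 to 31980067, reverse strand, within Wdr33 on the opposite strand), with 255 exon bases. Fragments were counted for both Gstm2 and Gm6665, as the plot of fragments assigned to either gene shows. In WT CD150hi HSC, Gstm2 had 17, 59, 94, 32 and 46 fragments and Gm6665 had 17, 62, 61, 33 and 17. In 5A3+/del CD150hi HSC, Gstm2 had 68, 91, 115, 164 and 208 fragments and Gm6665 had 7, 4, 23, 15 and 1. Gstm2 therefore took 48.8% to 73.0% of the summed fragments in WT and 83.3% to 99.5% in 5A3+/del libraries, while the sums, 34 to 155 and 75 to 209, overlapped. With the fragments of Gm6665 added to Gstm2, an alternative chosen after the data were seen, the log2 difference was 0.51 (SE 0.23, adjusted p = 0.326) and Gstm2 no longer passed. How reads that match both genes were assigned is not given in the sources used here, and why the split differs was not tested.

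**Figure D2:**
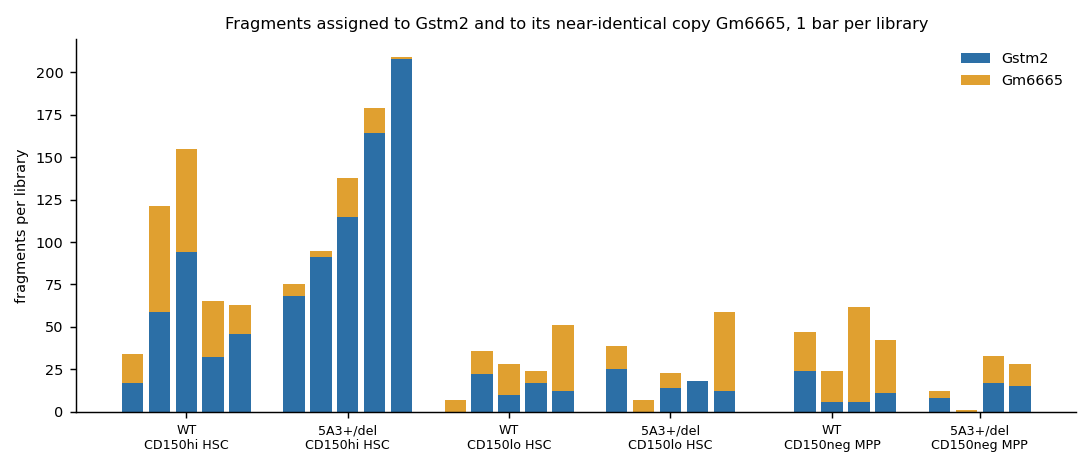
Fragments assigned to Gstm2 (lower part of each bar) and to its near-identical copy Gm6665 (upper part), 1 bar per library in order of replicate, by genotype and population. In CD150hi HSC the 5A3+/del bars consist almost wholly of Gstm2 and the WT bars of both genes, and the first WT CD150neg MPP library has no fragment of either.

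The other 2 members whose groups did not overlap in CD150hi HSC, Prdx2 and Gstm1, did not pass the test (4 of 37 members did not overlap, 10.8%, against 2.58% of all genes tested). Gstm2 is among these 4 and passed the filter only through CD150hi HSC, so this count too is a description. Prdx2, a cytosolic peroxiredoxin abundant in the erythroid lineage, had 29.5, 25.9, 25.8, 28.5 and 28.4 normalized FPKM in WT. In 5A3+/del it had 14.8, 19.1, 24.8, 23.1 and 22.2. The mean was thus 75.4% of WT, a log2 difference of -0.41 (SE 0.12, adjusted p = 0.12), and in CD150lo HSC it was 77.8% of WT (-0.35, SE 0.12, adjusted p = 0.376). The whole Prdx2 coding sequence also has a match of up to 96.3% identity elsewhere in the genome, whose part in these values was not tested. In CD150neg MPP the Prdx2 means were 25.5 and 24.9 normalized FPKM. The summed erythroid marker genes had overlapping ranges: their median was 40.2 FPKM (29.96 to 63.2) in 5A3+/del CD150hi HSC and 41.3 FPKM (23.6 to 54.6) in WT.

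Gstm1, the most abundant of the 4 mu-class members, had normalized FPKM of 93.7, 91.6, 84.6, 90.9 and 81.5 in WT CD150hi HSC. The 5A3+/del libraries had 178, 127, 126, 99.3 and 112. All were above WT and more widely spread, for a log2 difference of 0.51 (SE 0.16, adjusted p = 0.153). The Gstm1 coding sequence is matched at up to 99.1% identity at 2 other places, whose part was not tested. The Gstm1 means were also higher in 5A3+/del in CD150lo HSC (112 ± 12.2 against 86.2 ± 17.5, SD, n = 5 each, adjusted p = 0.568) and CD150neg MPP (117 ± 16.4, n = 4, against 99.8 ± 20.8, n = 5, adjusted p = 1), with overlapping groups. Mgst1, a membrane-bound glutathione transferase, was at 8.53 ± 1.93 against 5.89 ± 1.54 normalized FPKM (SD, n = 5 each) in CD150hi HSC, with overlapping groups (0.47, SE 0.16, adjusted p = 0.195).

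**Figure D3:**
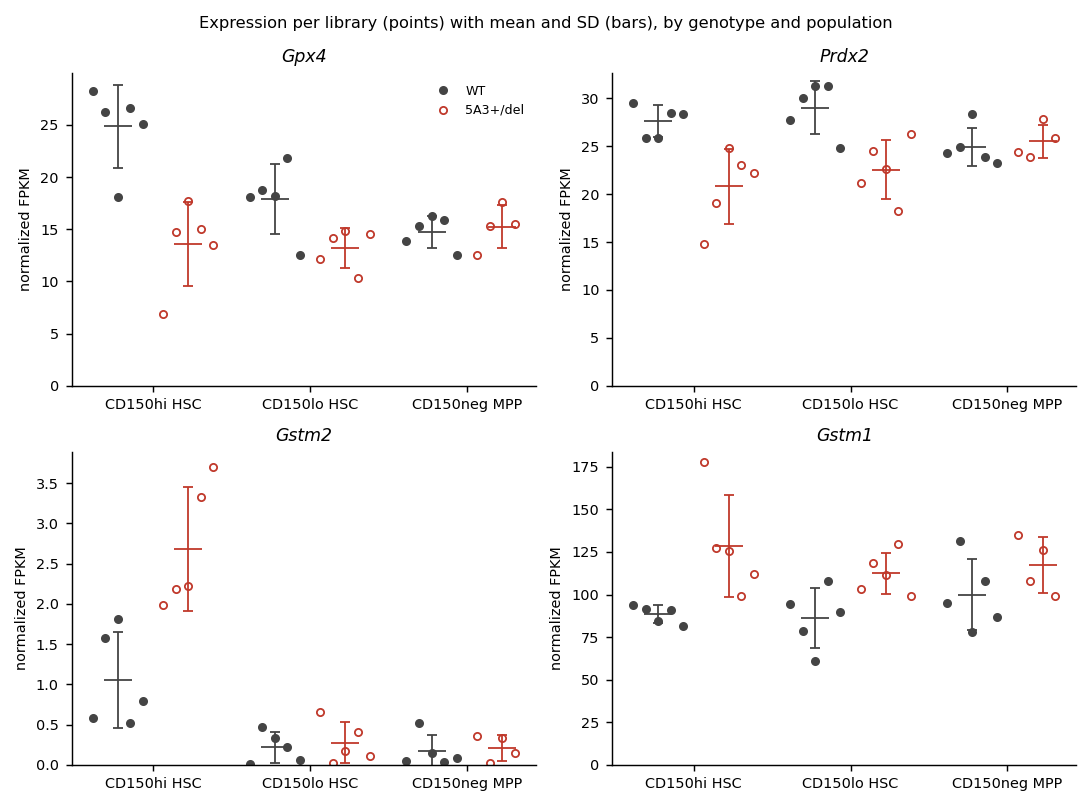
Normalized FPKM of Gpx4, Prdx2, Gstm2 and Gstm1 in each library (WT filled, 5A3+/del open circles), with the mean and SD as bars, by population. In CD150hi HSC all 5A3+/del values of Gpx4 and Prdx2 lie below, and those of Gstm2 and Gstm1 above, all WT values.

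By role, the 5 tested genes of catalase and the glutathione peroxidases all had log2 differences below 0 in CD150hi HSC (as did 49.3% of all genes), from -0.87 to -0.07 with a median of -0.34, but Gpx4 was the only one of them called. Of the 7 peroxiredoxin and sulfiredoxin genes 6 were below 0 (-0.41 to 0.23) and none was called. The 8 glutathione S-transferases ran from -0.33 to 0.86, with 5 above 0 and 1 called. Over all 37 members the median was -0.07, beside 0.004 for all genes tested. Of the 4 genes of the Nfe2l2 pathway, Nfe2l2 had 34.8 ± 7.27 normalized FPKM against 39.4 ± 2.73 in WT and Keap1 3.55 ± 0.784 against 5.06 ± 1.4 (SD, n = 5 each, adjusted p = 0.306 for Keap1, which was singled out after its values were seen). At an unadjusted p under 0.05 stood 7 of 37 members (18.9%), against 13.1% of all genes. Gstm2, which passed the filter only through CD150hi HSC, is among these 7, so this count is a description. Neutrophil and monocyte marker genes had summed medians of 244 FPKM (230 to 344) in 5A3+/del and 519 FPKM (290 to 1135) in WT CD150hi HSC, with overlapping ranges. Their part in these differences was not tested.

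In CD150lo HSC, no member passed (0 of 37, where 0.0324% of all genes did), and by limma 8 of 37 members had an unadjusted p under 0.05 (21.6%, against 6.87% of all genes). These were 4 with lower means in 5A3+/del (Prdx2, Gstm5, Gpx4 and Gss; background 4.09%) and 4 with higher means (Gstm1, Sod1, Txnip and Ucp2; background 2.78%). The groups overlapped in all 37 members, while 1.63% of all genes did not overlap. The Txnip libraries had 274, 260, 243, 199 and 266 normalized FPKM in 5A3+/del. In WT they had 190, 240, 186, 162 and 203. The groups overlapped, with a log2 difference of 0.34 (SE 0.15, adjusted p = 0.618). Sod1 had 354, 387, 387, 421 and 383 normalized FPKM in 5A3+/del CD150lo HSC. In WT it had 305, 329, 313, 308 and 383, so only 1 WT library reached the 5A3+/del range (0.24, SE 0.10, adjusted p = 0.618). Both differences depended on the scaling: with median scaling that of Sod1 was 0.05 (adjusted p = 0.999) and that of Txnip 0.21 (adjusted p = 0.94), and with no normalization beyond FPKM they were 0.07 and 0.22. The Sod1 coding sequence has a match of up to 97.8% identity elsewhere, whose part was not tested.

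In CD150neg MPP, no member passed (0 of 37, against 0.0454% of all genes), and 2 had an unadjusted p under 0.05 by limma (5.41%, against 4.27%). Gstm5, a mu-class transferase transcribed opposite to its neighbours in the cluster (chr3:107698739-107701604), had 16.7, 11.8, 8.05 and 8.06 normalized FPKM in 5A3+/del. In WT it had 7.25, 4.57, 4.59, 4.93 and 5.71. It was the only member whose groups did not overlap there (2.70% of members, against 1.51% of all genes), with a log2 difference of 0.88 (SE 0.23, adjusted p = 0.527). The same gene ran the other way in CD150lo HSC, 5.99 ± 1.42 against 9.76 ± 3.04 normalized FPKM (SD, n = 5 each, -0.60, SE 0.22, adjusted p = 0.497). The test of that contrast between populations gave -1.48 (SE 0.32, adjusted p = 0.243), which did not pass either.

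The other members with the smallest p in CD150neg MPP did not pass either. Glutathione synthetase, Gss, had 2.39, 2.51, 2.4 and 2.49 normalized FPKM in 5A3+/del and 4.41, 3.71, 4.38, 2.43 and 3.04 in WT (-0.39, SE 0.15, adjusted p = 1). One WT library lay within the narrow 5A3+/del range. Gstm4, another mu-class transferase, had 4.51 ± 0.864 (n = 4) against 2.84 ± 0.9 (n = 5) normalized FPKM, and Gclm, the modifier subunit of the rate-limiting enzyme of glutathione synthesis, 16.5 ± 2.28 against 13.1 ± 0.89 (both SD, adjusted p = 1). For Gsta4, which acts on lipid peroxidation products, the 5A3+/del values of 18.2, 37.3, 15.8 and 15 included 1 far above the rest, and WT had 12.4, 11.6, 20, 14.5 and 17.9. All 8 glutathione S-transferases had log2 differences above 0 in CD150neg MPP, from 0.06 to 0.88 with a median of 0.23, beside a median of -0.001 over all genes tested, of which 50.2% were below 0. None of these 8 passed.

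**Figure D4:**
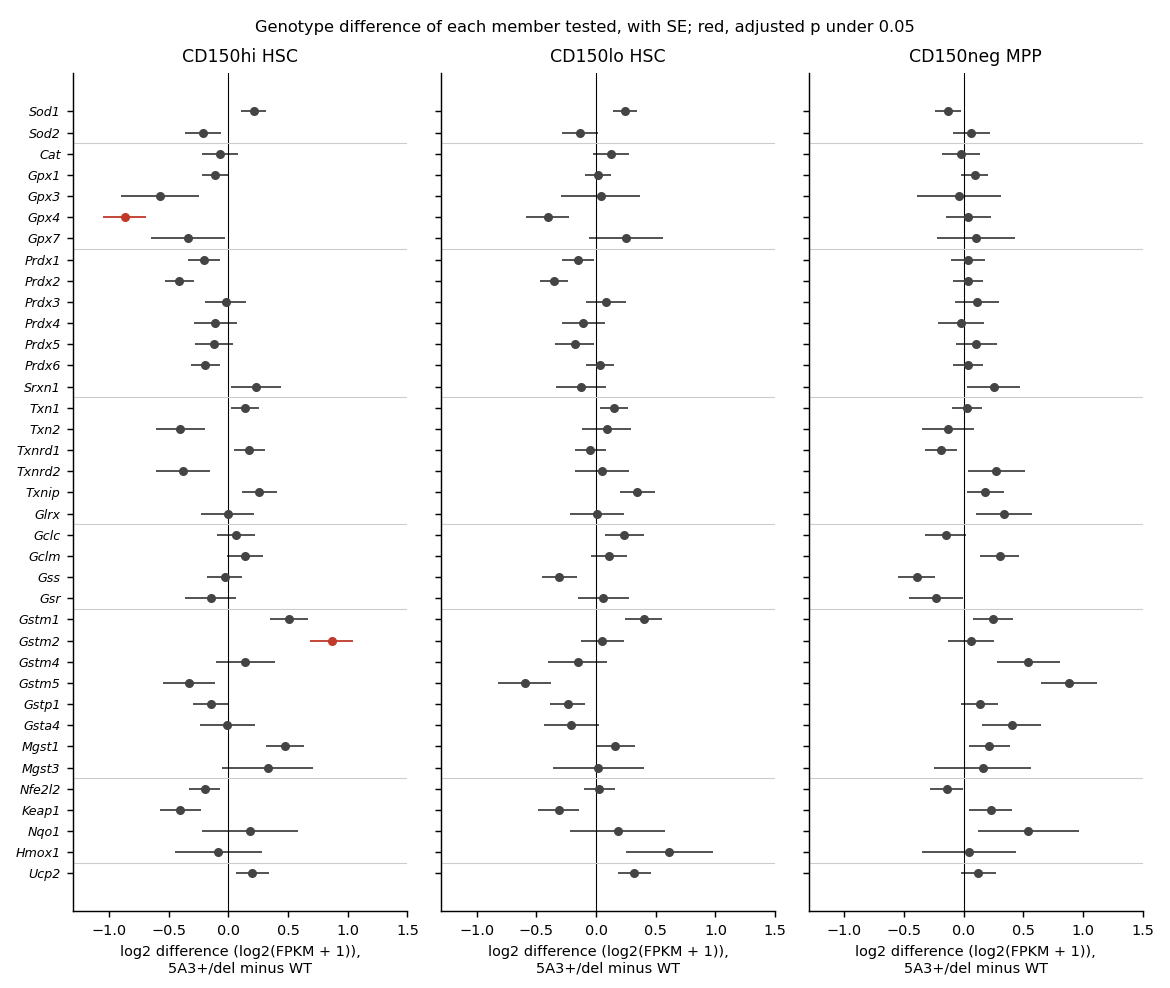
Difference of each tested member between genotypes (log2(FPKM + 1), 5A3+/del minus WT, point with SE) in the 3 populations, grouped by role. Only Gpx4 and Gstm2 in CD150hi HSC, drawn in red, passed an adjusted p of 0.05, and the remaining points scatter on both sides of 0.

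No interaction between genotype and population passed for any member or any gene (0% of genes in each of the 3 tests). By limma 1, 6 and 4 members of 37 had an unadjusted p under 0.05 for CD150hi HSC against CD150lo HSC, CD150hi HSC against CD150neg MPP and CD150lo HSC against CD150neg MPP, beside 3.98%, 7.96% and 5.00% of all genes. Gstm2 was the 1 member of the first test and among the 6 of the second. It passed the filter only through CD150hi HSC, so these counts are a description. With no interaction called, the genotype differences above are not shown to differ between populations.

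The second comparison asked how the same genes differ along the sequence from CD150hi HSC to CD150neg MPP, within each genotype. In WT mice, 3 of 37 members passed between CD150hi HSC and CD150lo HSC (8.11%, against 3.53% of all genes) and 7 of 37 between CD150hi HSC and CD150neg MPP (18.9%, against 10.0% of all genes), 5 higher and 2 lower in CD150hi HSC (background 5.47% and 4.58%). In 5A3+/del mice the counts were 3 of 37 (8.11%, against 3.18%) and 5 of 37 (13.5%, against 6.16%). Between CD150lo HSC and CD150neg MPP, 0 of 37 passed in either genotype (background 0.188% in WT and 0.0389% in 5A3+/del), with 7 and 3 members at an unadjusted limma p under 0.05 (background 8.75% and 4.95%). Mgst1 and Ucp2 were lower in CD150hi HSC and Gstm2 was higher in CD150hi HSC in all 4 of these comparisons with calls. Gstm2 passed the filter only through CD150hi HSC, so its calls were built into its selection. The 4 counts that include it are therefore a description and give no support to a share of members above the background. The WT comparisons share their CD150hi libraries, as do the 5A3+/del comparisons, and populations of a genotype come from the same mice.

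Mgst1 lies at chr6:138088837-138105276 on the forward strand. The 250 bases before a RefSeq transcript start at 138089048, chr6:138088798-138089047 of mm9, are shown with the TGACNNNGC match, on the other strand, in capitals, because Mgst1 had the smallest p among the WT comparisons. This start is 1 of 2 placed for Mgst1, and most of the stretch, the match included, lies inside the gene span given.
Mgst1: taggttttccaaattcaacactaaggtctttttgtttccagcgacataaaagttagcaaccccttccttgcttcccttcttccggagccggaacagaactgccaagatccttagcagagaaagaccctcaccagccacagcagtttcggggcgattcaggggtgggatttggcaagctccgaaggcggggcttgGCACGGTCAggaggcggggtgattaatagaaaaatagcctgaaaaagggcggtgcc

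Mgst1 values in WT were 4.23, 4.31, 6.96, 6.39 and 7.56 normalized FPKM in CD150hi HSC. In WT CD150lo HSC they were 9.9, 11.1, 14.3, 10.8 and 12.2, and in WT CD150neg MPP 12.7, 12.8, 12.4, 10.7 and 15.2. Every CD150hi library was below every library of the other populations, which overlapped each other. The level in CD150hi HSC was 50.5% of that in CD150lo HSC (-0.90, SE 0.16, adjusted p = 0.000841) and 46.1% of that in CD150neg MPP (-1.02, SE 0.16, adjusted p = 6.25e-05). In 5A3+/del mice the values were 7.12, 10.1, 10.1, 5.86 and 9.52 in CD150hi HSC, 15.3, 14.3, 12.8, 9.74 and 13.9 in CD150lo HSC and 17.1, 13.2, 16.1 and 13.5 in CD150neg MPP. Here CD150hi HSC was at 64.6% of CD150lo HSC (-0.59, SE 0.16, adjusted p = 0.0376), with 1 CD150lo library within the CD150hi range, and at 57.0% of CD150neg MPP (-0.76, SE 0.17, adjusted p = 0.0043). The CD150hi to CD150lo call of Mgst1 in 5A3+/del mice was lost without 5A3+/del mouse 1 (-0.48, adjusted p = 0.224), mouse 2, 3, 4 or 5, or WT mouse 4, and that against CD150neg MPP without 5A3+/del mouse 1 (-0.65, adjusted p = 0.0564).

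Ucp2 encodes a protein of the inner mitochondrial membrane that lowers the production of reactive oxygen species, and lies at chr7:107641846-107650529. Normalized FPKM of Ucp2 in WT were 22.3, 28.2, 27.2, 26.6 and 30.3 in CD150hi HSC. They were 36.4, 50.8, 36.5, 36.2 and 34.3 in CD150lo HSC and 43.8, 51.5, 45.2, 47.9 and 43.1 in CD150neg MPP. CD150hi HSC lay below both other populations in every library, at 69.4% of CD150lo HSC (-0.50, SE 0.14, adjusted p = 0.0375) and 58.1% of CD150neg MPP (-0.76, SE 0.14, adjusted p = 0.00041). The 5A3+/del libraries had 29.5, 32.2, 25.7, 29.2 and 39.7 in CD150hi HSC, 50.8, 51.4, 40.1, 41.5 and 59.4 in CD150lo HSC and 64.1, 51.5, 48 and 40.5 in CD150neg MPP. Again no CD150hi library reached the others (-0.62, SE 0.14, adjusted p = 0.00763, and -0.68, SE 0.15, adjusted p = 0.00307). The WT call between CD150hi and CD150lo HSC failed without any 1 of the 5 WT mice or 5A3+/del mouse 2 (adjusted p 0.0539 to 0.172), and the 5A3+/del call against CD150neg MPP without 5A3+/del mouse 1 (adjusted p = 0.0506).

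Gstm2 had the largest ratio between populations among the members called. Apart from CD150hi HSC it was near the limit of detection, with 0 to 25 fragments per library. Its normalized FPKM were 0.00882, 0.475, 0.333, 0.224 and 0.0607 in WT CD150lo HSC and 0.651, 0.0158, 0.176, 0.407 and 0.114 in 5A3+/del CD150lo HSC. The lowest value of each group is a library with 0 fragments, which quantile normalization placed just above 0. In 5A3+/del mice the CD150hi level differed from CD150lo HSC by 1.53 (SE 0.18, adjusted p = 2.71e-06) and from CD150neg MPP by 1.59 (SE 0.19, adjusted p = 2.1e-06) on the log2(FPKM + 1) scale, without overlap. The WT differences were 0.72 (SE 0.18, adjusted p = 0.0204) and 0.78 (SE 0.18, adjusted p = 0.00462). Because Gstm2 passed the filter only through CD150hi HSC, a difference between CD150hi HSC and the other populations was built into its selection, and these tests are given as a description. The sizes depend on the pseudocount: with 0.1 in place of 1 the differences were 3.25 and 3.39 in 5A3+/del and 2.01 and 2.30 in WT. With the fragments of Gm6665 added, these became 1.28 (adjusted p = 0.000678), 1.46 (adjusted p = 0.000142), 0.75 (adjusted p = 0.0625) and 0.76 (adjusted p = 0.0281), so that of these 4 only the WT difference from CD150lo HSC no longer passed. That WT difference also failed with median scaling (adjusted p = 0.0705), without a filter (0.0568), with no normalization beyond FPKM (0.0546), and without WT mouse 1, 3 or 5 (adjusted p 0.057 to 0.103).

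**Figure D5:**
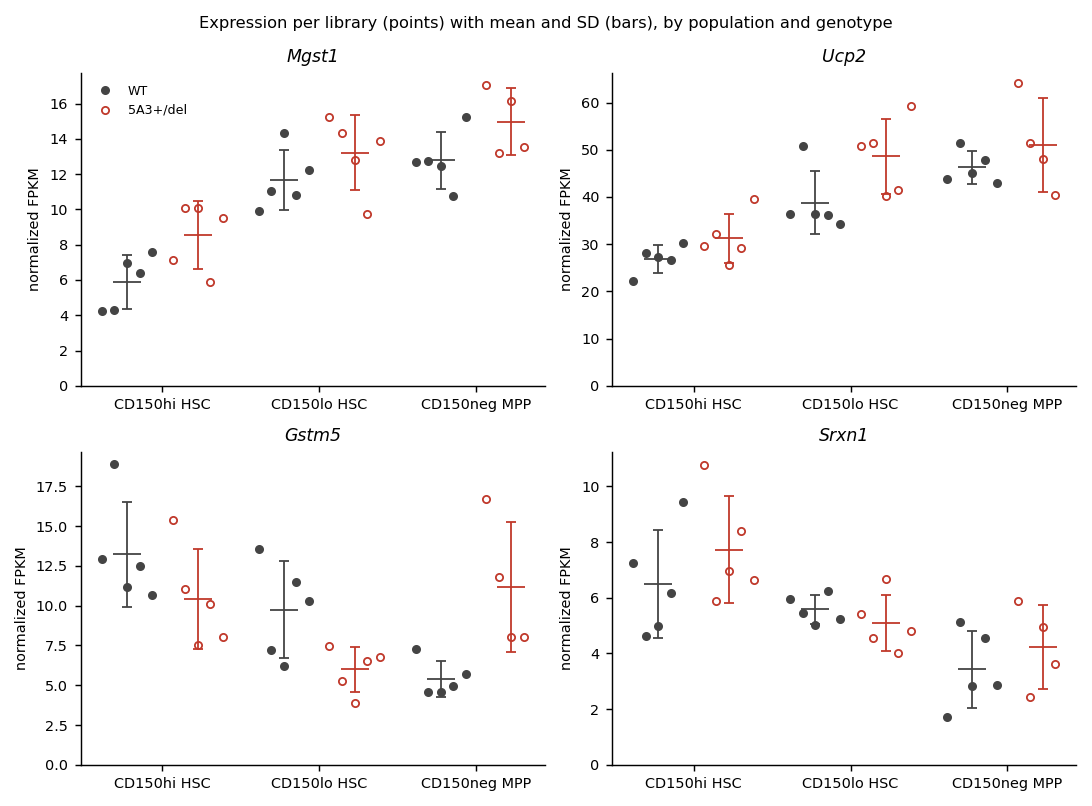
Normalized FPKM of Mgst1, Ucp2, Gstm5 and Srxn1 in each library (WT filled, 5A3+/del open circles), with the mean and SD as bars, by population. Mgst1 and Ucp2 are lowest in CD150hi HSC in both genotypes, and Gstm5 in CD150neg MPP is low in WT and higher in 5A3+/del.

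The other members higher in WT CD150hi HSC than in WT CD150neg MPP were Gstm5, Gpx4, Srxn1 and Prdx4. For Gstm5 the CD150hi values of 12.9, 18.9, 11.2, 12.5 and 10.7 normalized FPKM lay above all CD150neg values, 2.44-fold in the mean (1.14, SE 0.22, adjusted p = 0.000858). In 5A3+/del mice the same comparison gave -0.07 (SE 0.23, adjusted p = 0.926), with 15.4, 11.1, 7.54, 10.1 and 8 in CD150hi HSC. Gpx4 was 1.68-fold higher in WT CD150hi HSC than in WT CD150neg MPP without overlap (0.70, SE 0.18, adjusted p = 0.0107) and at -0.20 (SE 0.19, adjusted p = 0.676) in 5A3+/del mice. The interactions of genotype with CD150hi HSC against CD150neg MPP were -1.21 for Gstm5 and -0.91 for Gpx4. Neither passed. The WT Gpx4 call was lost without WT mouse 1 or 5 (adjusted p = 0.0718 and 0.0514).

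Srxn1, sulfiredoxin, which restores over-oxidized peroxiredoxins, was higher in CD150hi HSC than in CD150neg MPP in both genotypes. Its WT values were 7.25, 4.63, 5, 6.17 and 9.44 against 1.73, 5.11, 2.84, 4.57 and 2.88 normalized FPKM, 1.90-fold in the mean with overlap (0.78, SE 0.21, adjusted p = 0.0148). In 5A3+/del they were 10.8, 5.9, 6.98, 8.38 and 6.62 against 5.9, 2.45, 4.96 and 3.61 (0.76, SE 0.22, adjusted p = 0.037). Prdx4, the peroxiredoxin of the endoplasmic reticulum, had 13.2, 12.2, 14.2, 20.1 and 21.5 against 6.38, 7.94, 12.5, 14.5 and 11.3 normalized FPKM in WT (0.60, SE 0.18, adjusted p = 0.0314). In 5A3+/del mice Prdx4 did not overlap between these populations but did not pass (0.51, SE 0.19, adjusted p = 0.131). Gpx1, outside the rule for named genes and named because it passed, was lower in CD150hi HSC than in CD150neg MPP of 5A3+/del mice, with 165, 215, 232, 191 and 219 against 268, 242, 290 and 308 normalized FPKM (-0.44, SE 0.11, adjusted p = 0.0161).

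Of these calls, Srxn1 in WT was lost without WT mouse 1 or 5 (adjusted p = 0.133 and 0.122), Srxn1 in 5A3+/del without any 1 of the 5 5A3+/del mice or WT mouse 3 (adjusted p 0.0506 to 0.162), and Prdx4 without WT mouse 1, 2 or 5 or 5A3+/del mouse 3 (adjusted p 0.0502 to 0.126). By role, the median of the 7 peroxiredoxin and sulfiredoxin genes in the WT comparison of CD150hi HSC with CD150neg MPP was 0.39 and that of the 4 glutathione synthesis and recycling genes -0.19, beside 0.16 for all 37 members and -0.01 for all genes tested. In 5A3+/del mice these medians were 0.15, -0.01, -0.03 and -0.004. Summed marker genes of other cells had other medians in each of the 2 WT populations too. T and NK cell markers summed to medians of 8.59 FPKM in WT CD150hi HSC and 34.1 in WT CD150neg MPP, without overlap. Of the 5 genes of this list, Cd3g and Klrd1 were at 0 in every WT CD150hi library, and none was at 0 in every WT CD150neg MPP library. Erythroid markers summed to 41.3 and 67.3, with overlapping ranges. Neutrophil and monocyte markers summed to 519 and 267, with overlapping ranges of 290 to 1135 and 250 to 304. Their part in these results was not tested.

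Hmox1, heme oxygenase 1, was not called in any comparison and was singled out after its values were seen. In 5A3+/del CD150lo HSC it had 2.49, 6.89, 4.86, 8.54 and 14 normalized FPKM, against 5.18, 1.52, 2.18 and 0.245 in 5A3+/del CD150neg MPP (1.41, SE 0.39, adjusted p = 0.519). Summed macrophage markers (6 of 6 in the table) had medians of 18.3 FPKM (1.65 to 31.6) and 0.584 FPKM (0.33 to 6.47) in these groups, and C1qa was at 0 in all libraries of the second. The part of such cells in the Hmox1 values was not tested.

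Other genes of the pathway, 71 listed by function of which 62 were tested, gave no call between genotypes in any population. The superoxide-producing NADPH oxidase subunits Ncf1 and Ncf4 were lower in CD150hi HSC in both genotypes, 2 of the 6 oxidase genes tested. Cybb, of the same oxidase, was not called. At an unadjusted limma p under 0.05 it was higher in WT CD150hi HSC than in WT CD150neg MPP, and lower in 5A3+/del CD150hi HSC than in 5A3+/del CD150lo HSC. The median log2 differences of the 6 genes were -0.07 and -0.40 in these comparisons. Over all genes, 1.46% and 4.58% were called lower than in CD150lo HSC and CD150neg MPP in WT, and 1.37% and 2.93% in 5A3+/del. Ncf1 in CD150hi HSC was at 25.8% of CD150lo HSC and 19.5% of CD150neg MPP in WT, and at 28.1% and 20.6% in 5A3+/del. For Ncf4 the shares were 41.8% and 32.9% in WT and 42.1% and 34.6% in 5A3+/del (limma adjusted p at most 0.00632 over the 8 differences). Neutrophils and monocytes are the cells best known for this oxidase. Their summed markers had medians of 519, 414 and 267 FPKM in WT CD150hi HSC, CD150lo HSC and CD150neg MPP and of 244, 416 and 323 FPKM in 5A3+/del, and their part in the Ncf1 and Ncf4 values was not tested. Of 9 NADPH supply genes, transaldolase (Taldo1) was lower in WT CD150hi HSC than in CD150lo HSC (58.7%, adjusted p = 0.01). Of 19 tested Nfe2l2 partners and other targets, Ephx1, an epoxide hydrolase, was higher in CD150hi HSC than in CD150neg MPP in both genotypes (0.98 in WT, adjusted p = 0.0183, and 1.05 in 5A3+/del, adjusted p = 0.0232), where 5.47% and 3.23% of all genes were called higher. Maff, a small Maf partner, was called higher in WT (0.94, adjusted p = 0.0128) and Bach2, a competing repressor, in 5A3+/del (0.79, adjusted p = 0.0333). Msrb3, a methionine sulfoxide reductase, was called lower in WT CD150hi HSC (38.1% of CD150neg MPP, adjusted p = 0.00167) and Hagh, of the glyoxalase route, in 5A3+/del CD150hi HSC (48.4%, adjusted p = 0.00628). In 5A3+/del mice Maff was also higher and Msrb3 also lower in CD150hi HSC than in CD150neg MPP. Both were without overlap and at an unadjusted limma p under 0.05, but were not called. These calls are not shown to differ between genotypes, since no interaction passed for any gene.

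Of the members called in any comparison, Mgst1, Ucp2, Srxn1 and Gstm5 hold a TGACNNNGC match in the windows searched, and Gstm2, Gpx4, Prdx4 and Gpx1 do not. Nfe2l2, Gclm, Prdx1, Txnrd1 and Sod1 hold a match and were not called in any comparison.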

How the data were processed

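The authors amplified RNA of sorted cells (NuGEN Ovation V2), made unstranded TruSeq libraries and sequenced paired ends. The submitters' processing notes name mm9, Bowtie 0.12.2 and HTSeq, without their roles. Per the file headers, the deposited table gives FPKM per gene and library, already scaled for length and depth. Depth was estimated from the smallest steps of FPKM times length, and fragments were recovered as FPKM times length and this depth. Of low values, 98.4% to 98.9% came out within 0.05 of a whole number. The same low values set the depth, so this is no independent check. The 15409 genes that reached 1 FPKM in 4 or more libraries were tested: log2(FPKM + 1) was quantile normalized and fitted with limma 3.58.1 (R 4.3.3) as 6 group means. The pipeline was tested on simulated data. The members and all lists were chosen with earlier results of these data known. Full values are given for members past the threshold between genotypes, the 5 with the smallest p per genotype comparison and up to 8 past it between WT populations. Libraries of 1 mouse were matched by the animal code in the labels. Same-mouse libraries deviated together weakly (correlation -0.04 to 0.23, median 0.08, 28 pairs). Same replicate numbers across genotypes mark no shared source (median 0.03, 14 pairs). Copies of coding sequences were sought with BLAST 2.17.0 (at least 95% identity, 90 bases) and found for 8 members: Sod1, Gpx4, Prdx1, Prdx2, Txn1, Gstm1, Gstm2 and Gstp1. Exons of Prdx2, Prdx5, Txnrd2, Txnip, Gclm, Gss, Gstm5 and Keap1 overlap exons of genes on the other strand, and reads of such pairs cannot be told apart without strand.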

Additional observations from a re-analysis of the deposited data

Results flagged for a closer look

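Among 90 groups of 4 or 5 libraries, 8 held a library far from the rest of its group by Dixon's criterion, where chance gives about 1 in 20 (4.5 of 90). All values are normalized FPKM. Gsta4 had 3 of the 8: replicate 2 of WT CD150hi HSC at 23.1 (others 10.5 to 13.6), replicate 5 of 5A3+/del CD150hi HSC at 21.6 (others 10.2 to 13.5) and replicate 2 of 5A3+/del CD150neg MPP at 37.3 (others 15.0 to 18.2). Replicate 2 of WT was also the outlying library for Gstm5 in CD150hi HSC at 18.9 (others 10.7 to 12.9), for Ucp2 in CD150lo HSC at 50.8 (others 34.3 to 36.5) and for Gstm2 in CD150neg MPP at 0.520 (others 0.0352 to 0.150). Gss in 5A3+/del CD150lo HSC was at 1.24 in replicate 4 (others 2.21 to 2.40). Prdx4 in 5A3+/del CD150neg MPP was at 11.4 in replicate 4 (others 9.37 to 9.67).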

How the results depend on the processing

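Alternatives were run for the counts and medians of members and for the named differences of members, not for the other pathway genes. None of these named differences changed sign, while the median of the members between genotypes in CD150lo HSC, 0.03, was -0.000698 with median scaling. The count of members called between genotypes in CD150hi HSC, 2, was the least stable: it was 0 with a pseudocount of 0.1 and 0 with only the 2 groups in the fit, and 1 with a filter of FPKM of at least 5, with no normalization beyond FPKM, with age as a covariate and with the fragments of Gm6665 added to Gstm2. With the replicate number as a block it was 0, but these numbers pair no animals across genotypes. Without 1 mouse at a time it ran from 0 to 2. The count for CD150hi against CD150lo HSC in WT, 3, was 1 with no normalization beyond FPKM and 1 to 3 without 1 mouse at a time. For CD150hi HSC against CD150neg MPP the counts ran from 4 to 8 in WT and from 1 to 6 in 5A3+/del, and for CD150hi against CD150lo HSC in 5A3+/del from 2 to 3. With the mouse as a block they were 10, 7 and 4, which changed no count by more than 1.5 times. With the mouse as a block no named difference between populations lost its call. The following named differences between populations failed with no normalization beyond FPKM (adjusted p 0.0507 for Ucp2 in WT, 0.0546 for Gstm2 in WT, 0.0648 for Mgst1 and 0.0583 for Srxn1 in 5A3+/del), those of Gstm2, Mgst1 and Srxn1 also failed without a filter (0.0568, 0.0535 and 0.0664), and that of Gstm2 also with median scaling (0.0705) and with Gm6665 added (0.0625). Over all genes, the 24 calls between genotypes in CD150hi HSC became 81 with the FPKM filter of 5, 75 without a filter, 100 with a trend in the variance prior, 15 with a pseudocount of 0.1 and 0 with only the 2 groups or the replicate block. The 29 of CD150lo HSC against CD150neg MPP in WT became 63 with the FPKM filter, 64 with the trend, 2 with no further normalization and 1 with the block. Without 1 mouse at a time, the 24 ran from 4 (without WT replicate 4) to 40 (without WT replicate 5), the 5 between genotypes in CD150lo HSC from 3 to 74 (without WT replicate 5), and the 29 from 0 to 69 (also without WT replicate 5), so the background shares are uncertain to the same degree. Without WT replicate 5, 13 genes passed the interaction of CD150lo HSC with CD150neg MPP, where 0 did with all mice. Age and the 2-group fit apply to the genotype comparisons only. The 5 mice per genotype, genes of few fragments such as Gstm2, and counting that cannot separate near-identical copies limit these results.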
